A study of Mus musculus with 12 samples.

Results

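Steroid hormones of the ovary are made from cholesterol by a short chain of enzymes and are read by receptors in the same organ, and 10 genes of this system were followed in the fetal mouse ovary. They are 6 genes of steroid synthesis (Star, Cyp11a1, Hsd3b1, Cyp17a1, Cyp19a1 and Cyp21a1) and 4 receptor genes (Esr1, Esr2, Fshr and Lhcgr), chosen by their Ensembl identifiers and chromosomes. All 10 were found among the 55416 genes of the input count files, with 0 dropped, and 3 of them had rows in the table of immunoprecipitated RNA, 4 rows of 14447. For all 10, the RefSeq gene table placed the same symbol on the same chromosome.

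In steroidogenic cells, the protein of Star brings cholesterol into the mitochondrion, Cyp11a1 cuts its side chain to make pregnenolone, and Hsd3b1 turns that into progesterone. Cyp17a1 leads on to androgens, Cyp19a1 (aromatase) turns androgens into estrogens, and Cyp21a1 serves the corticoid branch of the adrenal cortex. Esr1 and Esr2 are the nuclear receptors of estrogen, and Fshr and Lhcgr are the cell-surface receptors of the pituitary gonadotropins. In the mouse, the ovary acquires most of its steroid output after birth, when follicles and theca cells form.

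The libraries came from whole ovaries of E16.5 fetuses, each from 5 pairs of ovaries, in 2 genotypes: Fmr1 knockout (KO) and wild type (WT). The labels give the strain B6.129P2-Fmr1tm1Cgr/J for both genotypes and call the WT input animals littermates. They do not say whether KO ovaries were homozygous or which pools shared litters. Sample titles call the libraries biological replicates. The tests below weigh differences against the spread among these pools, a part of which may be technical. For each genotype there were 3 libraries of input RNA, taken from the ovary homogenate, and 3 of RNA immunoprecipitated (RIP) with the antibody ab17722, raised against the product of Fmr1, the RNA-binding protein FMRP. Input libraries held 18880238 to 25707718 counted reads, and the 10 genes took 0.0167% to 0.0188% of them. Fmr1 itself had 1644, 2968 and 1763 reads in KO input, against 5177, 4880 and 4664 in WT input (log2 change -1.08, SE 0.11; adjusted p = 0.00775 by the quasi-likelihood test of edgeR after Benjamini-Hochberg adjustment). Summed CPM (reads per library size after TMM scaling) of 3 pregranulosa markers (Foxl2, Wnt4, Fst) were 228 to 247 in KO and 222 to 235 in WT. Those of 3 germ cell markers (Ddx4, Dazl, Sycp3) were 186 to 222 in KO and 137 to 184 in WT, so both labelled constituents of an ovary were present.

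The input libraries show how much RNA each gene had. Levels are compared between genes per exonic length, as TPM (read counts divided by exonic length and scaled to 1 sum in each library). Esr1 was highest, then Hsd3b1 and Star, and the gonadotropin receptor gene Fshr and the corticoid enzyme gene Cyp21a1 were at the bottom with Cyp19a1. Over the 6 input libraries the means ran from 17.6 TPM for Esr1 to 0.104 TPM for Fshr. The upper 4 places, Esr1, Hsd3b1, Star and Lhcgr, were each separated from the next gene in all 6 libraries, with ranges that did not overlap. From Esr2 downwards the order was Esr2, Cyp17a1, Cyp11a1, Cyp19a1, Cyp21a1 and Fshr. Neighbours there had overlapping ranges, so the order of each gene and the next was not resolved beyond their spread. Fshr, at most 0.214 TPM on at most 7 reads a library, lay below every library of Esr2, Cyp17a1 and Cyp11a1. Their lowest values were 0.319, 0.279 and 0.255 TPM. Exonic lengths count the exons of all annotated isoforms, which sets the TPM of a gene with many isoforms low, as for Esr1 with its 13661 bp.

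**Figure D1:**
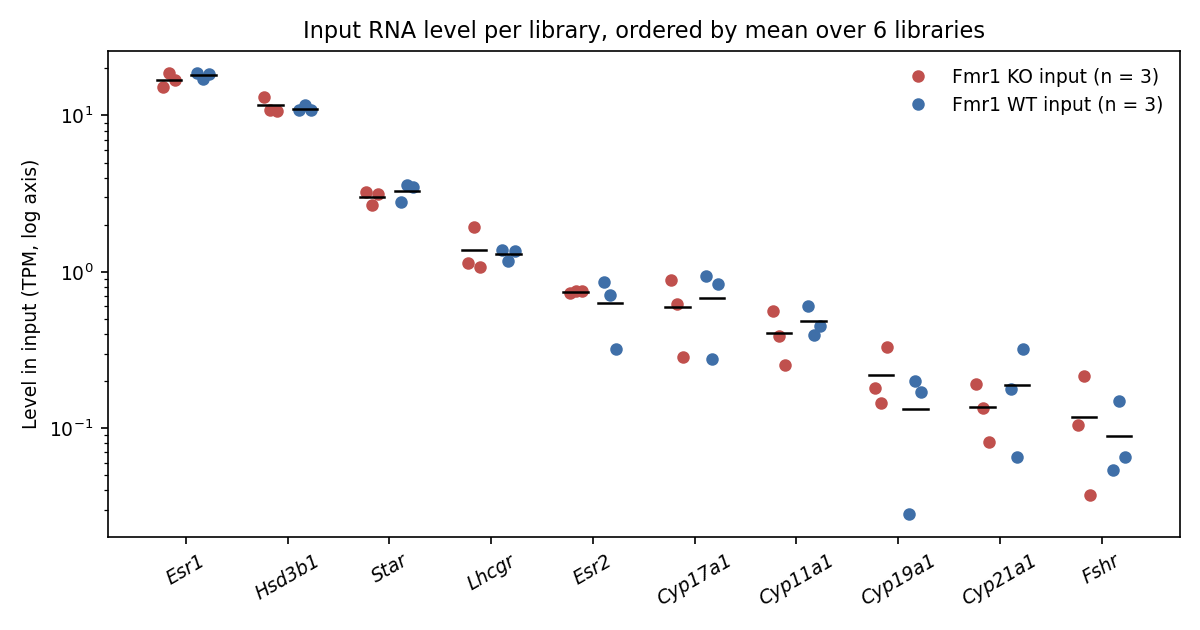
Input level of each gene in TPM on a log axis, with 1 point per library (KO left, WT right) and a line at the mean of 3. Esr1 lies between 15.2 and 18.7 TPM and Fshr between 0.0371 and 0.214 TPM, and the KO and WT points of each gene share a range on this scale.

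Among the synthesis genes, Hsd3b1 (ENSMUSG00000027871, chromosome 3, 98759510 to 98767110, coordinates of the count files for every gene) was the most abundant. It had 13.2, 10.9 and 10.7 TPM in KO, against 10.8, 11.6 and 10.8 TPM in WT. Its mean over 6 libraries exceeded that of 69.0% of the 23698 genes tested in the input. Hsd3b1 belongs to a family of similar genes on that chromosome, so a part of its reads may belong to copies. The gonadal and placental relative Hsd3b6 stood at 0.337 ± 0.214 TPM in KO and 0.611 ± 0.107 TPM in WT (SD, n = 3 each).

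Star (ENSMUSG00000031574, chromosome 8, 26296583 to 26306010) had 3.25, 2.67 and 3.15 TPM in KO, against 2.81, 3.60 and 3.49 TPM in WT. Cyp11a1 (ENSMUSG00000032323, chromosome 9, 57913694 to 57934306), which opens the pathway, had 33, 26 and 14 reads in KO libraries and 46, 27 and 28 reads in WT libraries. That made 0.403 ± 0.154 TPM in KO and 0.483 ± 0.111 TPM in WT (SD, n = 3 each). Within each library Hsd3b1 therefore stood 23.5 to 41.8 times above Cyp11a1 in KO and 17.7 to 29.5 times in WT. Star exceeded Cyp11a1 by 5.77 to 12.3 times in KO and 4.62 to 9.13 times in WT. Of the exonic bases of Cyp11a1, 145 of 4804 overlap exons of another gene on the same strand.

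Cyp17a1 (ENSMUSG00000003555, chromosome 19, 46655604 to 46661611) varied most among the synthesis genes with over 100 reads in all. It had 30, 24 and 9 reads in KO and 41, 11 and 30 reads in WT. The lowest libraries, KO replicate 3 and WT replicate 2, were 1 of each genotype. Variation within genotypes was 6.27 times that of counting alone for Cyp17a1 (chi-square per degree of freedom, 4 degrees), against 2.84 for Cyp11a1.

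Cyp19a1 (ENSMUSG00000032274, chromosome 9, 54073221 to 54175394) had 10, 9 and 17 reads in KO and 2, 13 and 10 reads in WT. Cyp21a1 (ENSMUSG00000024365, chromosome 17, 35020322 to 35023535) had 5, 4 and 2 reads in KO and 6, 2 and 9 in WT. These are traces: the sums of Cyp21a1 were 11 reads in KO (exact 95% Poisson interval 5.49 to 19.7) and 17 in WT (9.90 to 27.2), intervals that cover counting error only. Mouse Cyp21a1 has a close pseudogene copy, and 102 of its 2140 exonic bases overlap a gene on the opposite strand, which counting without strand cannot separate. Markers of adrenal cortex were also near 0, with summed CPM over Cyp11b1, Cyp11b2 and Akr1b7 of 0.207 to 0.677 in KO and 0.316 to 1.23 in WT. All 3 had some reads. Markers of the fetal testis (Sox9, Dhh, Insl3, Hsd17b3) summed to 9.69 to 11.9 CPM in KO and 10.7 to 11.9 CPM in WT, nearly all of it Sox9.

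Among the receptors, Esr1 (ENSMUSG00000019768, chromosome 10, 4561593 to 4955614) had 15.2, 18.7 and 16.96 TPM in KO, against 18.7, 17.2 and 18.5 TPM in WT. Esr2 (ENSMUSG00000021055, chromosome 12, 76167193 to 76224033) had 30, 35 and 29 reads in KO and 46, 34 and 14 reads in WT. Esr1 exceeded Esr2 per length by 20.8 to 24.9 times in KO and 21.6 to 58.0 times in WT. The value of 58.0 came from WT replicate 3, the library with 14 Esr2 reads.

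The gonadotropin receptor genes are neighbours on chromosome 17, 192961 bp apart, and differed in level. Lhcgr (ENSMUSG00000024107, 89023909 to 89099418) had 106, 204 and 93 reads in KO and 166, 127 and 135 reads in WT. Fshr (ENSMUSG00000032937, 89292380 to 89508103) had 3, 7 and 1 reads in KO and 2, 5 and 2 reads in WT. Per length, Lhcgr stood 8.996 to 28.7 times above Fshr in KO and 7.84 to 25.6 times in WT, ratios that rest on at most 7 Fshr reads. Summed Fshr counts were 11 in KO (exact 95% Poisson interval 5.49 to 19.7) and 9 in WT (4.12 to 17.1).

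Nr5a1, the nuclear receptor known in mouse and human to switch on many steroidogenic genes, was abundant in these libraries, at 16.6 ± 0.229 TPM in KO and 15.6 ± 1.41 TPM in WT (SD, n = 3 each). Nr5a1 recognises the hexamer AGGTCA with further bases before it, and estrogen receptors bind paired copies of that hexamer. The hexamer was searched on both strands (as AGGTCA or TGACCT) in the 250 bases before each RefSeq transcription start (build GRCm38.p6). No window was available for Star, Cyp17a1 and Cyp21a1, which were not searched. Of 11 windows for the other 7 of the 10 genes, 3 held the hexamer, 1 each for Cyp11a1, Cyp19a1 and Lhcgr, against 14.02% of all 32851 windows. These 3 windows are printed to show where the hexamer lies in each. They run 5′ to 3′ with the hexamer in capitals, 28, 81 and 122 bases before the start, in the order shown. Their positions are on GRCm38.p6 and do not line up with the gene positions of the count files given above.
Cyp11a1, chr9:58014702-58014951, plus strand: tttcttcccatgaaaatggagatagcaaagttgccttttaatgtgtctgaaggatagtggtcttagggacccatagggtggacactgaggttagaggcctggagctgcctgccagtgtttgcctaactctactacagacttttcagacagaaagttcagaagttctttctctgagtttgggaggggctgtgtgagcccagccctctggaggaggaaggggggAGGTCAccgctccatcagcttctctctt
Cyp19a1, chr9:54268165-54268414, minus strand: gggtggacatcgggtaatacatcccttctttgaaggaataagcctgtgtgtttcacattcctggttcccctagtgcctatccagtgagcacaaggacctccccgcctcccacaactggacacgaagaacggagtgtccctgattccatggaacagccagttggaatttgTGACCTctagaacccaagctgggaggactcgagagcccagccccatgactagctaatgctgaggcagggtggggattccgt
Lhcgr, chr17:88792015-88792264, minus strand: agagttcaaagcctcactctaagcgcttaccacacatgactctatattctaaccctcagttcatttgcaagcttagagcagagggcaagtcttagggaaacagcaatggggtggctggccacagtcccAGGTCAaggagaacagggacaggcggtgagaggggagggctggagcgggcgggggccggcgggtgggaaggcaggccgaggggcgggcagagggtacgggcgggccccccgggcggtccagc
Cyp11a1 has 1 further RefSeq start and Cyp19a1 2 further ones without the hexamer in their windows. The printed window is at the downstream start of Cyp11a1 and at the most upstream start of Cyp19a1. Which starts these ovaries used was not tested. Each printed window held 1 copy, so none held a pair of exact copies. The further bases that Nr5a1 needs before the hexamer were not part of the search. A match is a string of letters, and no occupancy was measured here.

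The next comparison asked whether the abundance of these transcripts differed between Fmr1 KO and WT ovaries. None of the transcripts passed the test. Of the 10, 8 had enough reads for it, and 0 of the 8 were called (edgeR, Benjamini-Hochberg adjusted p under 0.05 over all 23698 genes, adjusted p from 0.821 to 0.992), beside 0.0422% of all genes tested. DESeq2 called 0 of the 7 for which it gave an adjusted p, and 0 had an unadjusted p under 0.05 there. Estimates were positive for 4 and negative for 4, with a median log2 change of -0.054, beside -0.0020 over all tested genes. In bulk ovaries, fewer cells of a type and less RNA per cell cannot be told apart.

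Esr1 came nearest. Its levels were 132, 146 and 140 CPM in KO, against 159, 146 and 156 CPM in WT. All 3 KO libraries lay below all 3 WT libraries on this scale, but only just, with 146.475 CPM in KO replicate 2 and 146.486 CPM in WT replicate 2. Groups that did not overlap were found for 10.9% of all tested genes. On the TPM scale, above, the groups overlapped. The log2 change was -0.14 (SE 0.066, 95% interval -0.28 to -0.0042; unadjusted p = 0.0439, adjusted p = 0.821, edgeR), a fold of 0.906 in KO over WT. Esr1 was the 1 member at an unadjusted p under 0.05, beside 5.9% of all tested genes, and DESeq2 gave it an unadjusted p of 0.0587. In the same libraries all 3 germ cell markers had positive estimates, with 0 called and 2 at an unadjusted p under 0.05, and their summed levels are given above. Sycp3 stood at 74.2 ± 0.583 TPM in KO and 61.2 ± 7.41 TPM in WT (SD, n = 3 each; adjusted p = 0.698, edgeR). Of the 1264 exonic bases of Sycp3, 660 overlap a gene on the opposite strand, which counting without strand cannot separate. The part of the germ cell markers in the Esr1 estimate was not tested.

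Hsd3b1, Star and Lhcgr had the narrowest intervals after Esr1. The log2 change of Hsd3b1 was 0.033 (SE 0.15, adjusted p = 0.991, edgeR), and its 95% interval ran from 0.827-fold to 1.27-fold in KO over WT. The estimate for Star was -0.16 (SE 0.18, adjusted p = 0.976, edgeR), with an interval from 0.694-fold to 1.15-fold. For Lhcgr it was 0.041 (SE 0.21, adjusted p = 0.992, edgeR), from 0.762-fold to 1.39-fold. KO replicate 2 had the highest Lhcgr level, 8.46 CPM, against 5.52 and 4.93 CPM in the other KO libraries and 6.55, 5.54 and 6.40 CPM in WT. Without it the log2 change of Lhcgr was -0.24.

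For the rare transcripts the test bounds little. Cyp11a1 had a log2 change of -0.29 (SE 0.36), with an interval from 0.484-fold to 1.38-fold. For Cyp17a1 the change was -0.21 (SE 0.46), from 0.445-fold to 1.67-fold. Cyp19a1 gave the largest estimate of the 8, 0.68 (SE 0.58), with an interval from 0.695-fold to 3.69-fold. WT replicate 1, with 2 reads, was its lowest library, and without it the estimate was 0.18. Esr2 had a log2 change of 0.18 (SE 0.36), from 0.680-fold to 1.90-fold. Cyp21a1 and Fshr did not pass the filter on low counts. Fitted without that filter, they had log2 changes of -0.47 (SE 0.74) and 0.39 (SE 0.86).

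**Figure D2:**
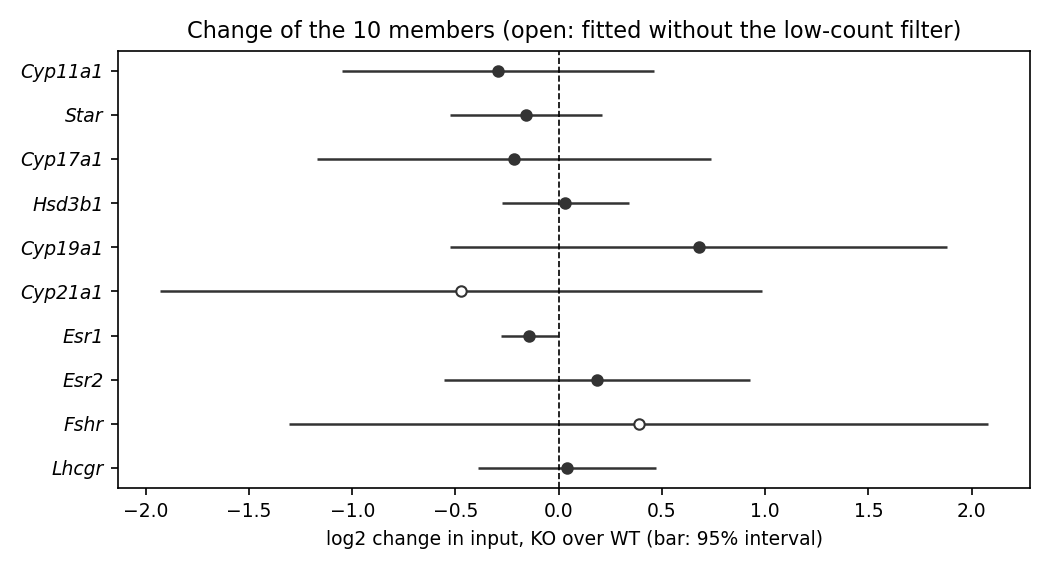
Log2 change in input, KO over WT, with its 95% interval, for the 10 members; open circles are Cyp21a1 and Fshr, fitted without the low-count filter. The interval of Esr1 ends just below 0, at -0.0042, and the other 9 members' intervals include 0.

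Over the 6 libraries the levels of the members were also compared with each other, on log2(CPM + 0.1). Of 45 pairs, 2 had an exact permutation p under 0.05 by Pearson's r and 2 by Spearman's rho before adjustment, and 0 by either after it. By r they were Cyp17a1 with Cyp21a1 (Pearson r = 0.870, exact permutation p = 0.0278, adjusted p = 0.928; Spearman rho = 0.714, p = 0.136, adjusted p = 0.899) and Cyp11a1 with Cyp17a1 (r = 0.827, exact permutation p = 0.0486, adjusted p = 0.928; rho = 0.943, p = 0.0167, adjusted p = 0.75). Without the 2 libraries farthest from the median of the first gene, r was 0.526 and 0.641. By rho they were Cyp11a1 with Cyp17a1 and Cyp19a1 with Lhcgr (rho = -0.886, exact permutation p = 0.0333, adjusted p = 0.75; r = -0.516, p = 0.286, adjusted p = 0.928), whose r without the 2 farthest libraries was -0.978. Few points stand behind each r without 2 libraries, so none of these values shows a firmer relation. Cyp21a1 had 2 to 9 reads a library and Cyp19a1 had 2 to 17. On deviations from the genotype means, r was 0.872 for Cyp17a1 with Cyp21a1, 0.852 for Cyp11a1 with Cyp17a1 and -0.577 for Cyp19a1 with Lhcgr.

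A wider list of 22 genes of steroid synthesis, cholesterol supply, regulators, ligands and other receptors was counted in the same fit. Of these, 18 were tested and 0 were called in either direction (edgeR), with 1 at an unadjusted p under 0.05; 13 estimates were positive and 5 negative, with a median log2 change of 0.091. Of all 23698 tested genes, 11729 had positive and 11969 negative estimates, with a median of -0.0020, and 5.9% had an unadjusted p under 0.05. For 3 of the 18 the groups did not overlap in CPM, against 10.9% of all tested genes. Hsd3b6 and Hsd17b1, an estradiol-forming enzyme of granulosa cells, had the lowest estimates, -0.91 (SE 0.51) and -0.91 (SE 0.49), on 22 and 25 reads summed over KO libraries against 47 and 52 over WT libraries (adjusted p = 0.893 and 0.887, edgeR).

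The last comparison asked whether these transcripts were recovered with FMRP. The RIP table lists fold enrichments, linear ratios computed by the authors, for rows assigned to genes. Neither labels nor headers used here state the denominator of the ratio or the choice of rows. Hsd3b1 and Esr2 had 1 row each and Esr1 had 2. The 7 members without a row were Star, Cyp11a1, Cyp17a1, Cyp19a1, Cyp21a1, Fshr and Lhcgr. Having a row went with the input level over all genes: 61.4% of genes at 15 to 20 TPM and 52.4% at 10 to 15 TPM had one, as did 8.85% at 2 to 5 TPM and 4.79% at 0.5 to 1 TPM. Esr1 and Hsd3b1 lie in the first pair of these classes, Star in the third, and Esr2 and Cyp17a1 in the last. The missing row of a member is therefore no measurement of its recovery.

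**Figure D3:**
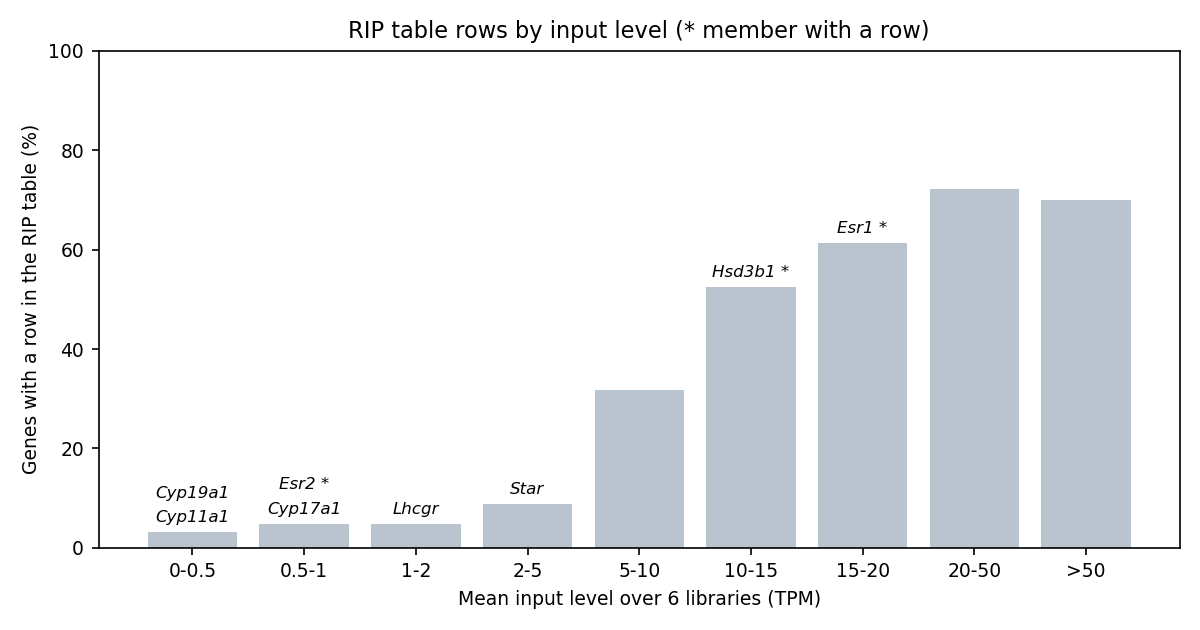
Share of tested genes that have a row in the RIP table, by mean input level over 6 libraries in TPM, with the 8 tested members written above their class and an asterisk on those with a row. The share is 3.10% in the lowest class and 70.0% in the highest, and Esr2 is the member with a row from a class where 4.79% have one.

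The row of Esr2 carried the same 6 values as a row of ENSMUSG00000046580, a gene of 292 bp inside the Esr2 span (chromosome 12, 76199110 to 76199401, same strand), whose exon shares no base with Esr2 exons. That gene had 281, 324 and 259 reads in KO input and 294, 387 and 314 in WT input. Its mean of 79.4 TPM compares with 0.688 TPM for Esr2. The files do not say where in the Esr2 span the row lies, so which of the 2 transcripts was measured cannot be told apart. The row had fold enrichments of 1.54, 1.42 and 1.48 in KO and 1.47, 0.968 and 1.33 in WT. Over all rows, the medians of the RIP libraries were 1.72 to 1.78. By its mean over 6 libraries, KO and WT pooled, this row exceeded 15.6% of all rows. Library by library, it exceeded 38.1%, 24.9% and 33.0% of all rows in KO and 27.5%, 1.96% and 20.2% in WT. KO values lay close together and WT replicate 2 was lowest (log2 difference 0.14, KO minus WT, SE 0.097, adjusted p = 0.729, limma on log2(value + 1)).

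For Esr1, the row with the higher mean had 2.42, 3.29 and 4.54 in KO and 3.39, 1.65 and 1.52 in WT. WT replicate 1 lay among the KO values and the other WT libraries below them. The difference was 0.49 on the log2(value + 1) scale (SE 0.26, 95% interval -0.13 to 1.10; adjusted p = 0.658, limma), and the group means, 3.41 ± 1.07 and 2.19 ± 1.04 (SD, n = 3 each), differed by 1.56-fold with KO the higher. Without WT replicate 1 it was 0.73 and without KO replicate 3 it was 0.31. The 3 libraries with the highest values, KO replicates 2 and 3 and WT replicate 1, were those with the widest spread of ratios over all rows: the 99th percentile was 25.1, 17.1 and 21.7 there, against 10.4 in KO replicate 1 and 10.3 and 11.6 in WT replicates 2 and 3. The part of that spread in the Esr1 values was not tested. The second Esr1 row had 1.499, 1.56 and 1.19 in KO and 1.15, 1.58 and 1.06 in WT (log2 difference 0.095, SE 0.11, adjusted p = 0.835, limma). Its mean over 6 libraries, KO and WT pooled, exceeded that of 13.6% of all rows, against 83.3% for the higher Esr1 row. Library by library, the higher row exceeded 77.8%, 87.0% and 92.3% of all rows in KO and 87.1%, 43.4% and 34.6% in WT. KO and WT values were mixed in both rows of this gene.

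**Figure D4:**
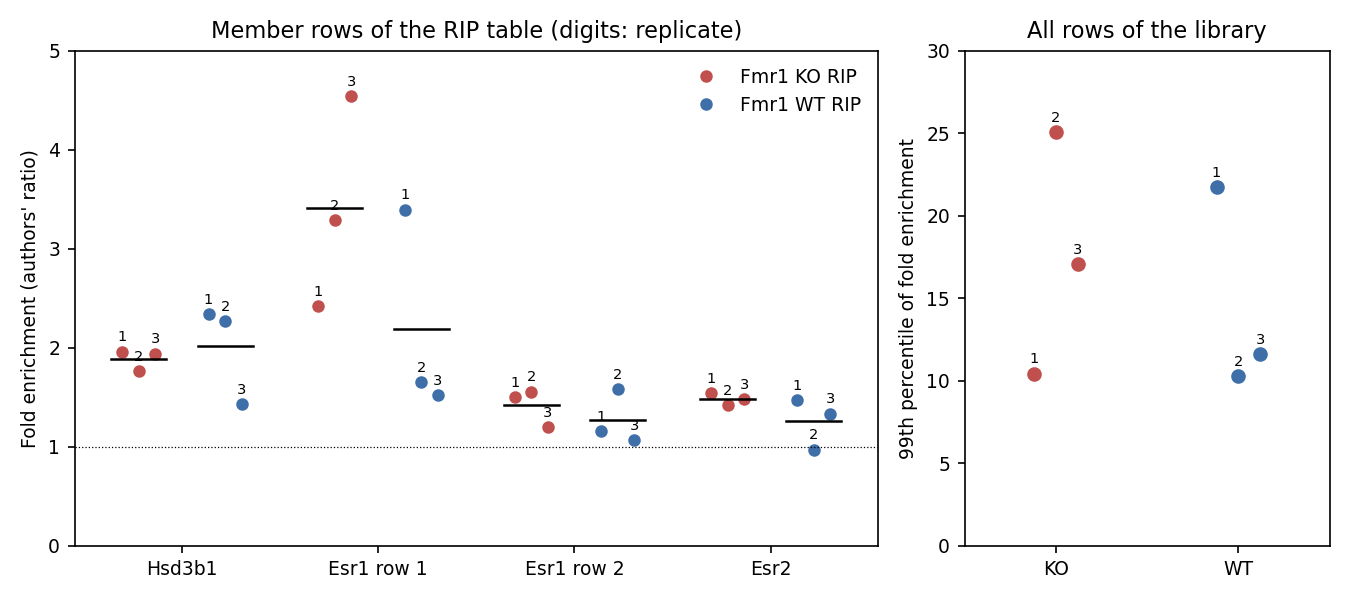
Left, fold enrichment of each member row in every RIP library (KO left, WT right, digits for replicate number, line at the mean of 3, dotted line at 1). The library medians over all rows, 1.72 to 1.78, are not drawn. Right, the 99th percentile of all rows in each library; KO 2, KO 3 and WT 1 are highest there, and they hold the 3 highest values of Esr1 row 1.

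Hsd3b1 had fold enrichments of 1.96, 1.76 and 1.94 in KO and 2.34, 2.27 and 1.43 in WT. Its mean over 6 libraries, KO and WT pooled, exceeded that of 61.9% of all rows. Library by library, it exceeded 62.7%, 48.8% and 60.2% of all rows in KO and 74.0%, 74.6% and 27.5% in WT. The KO values fell inside the WT range, and the difference was -0.049 (SE 0.14, 95% interval -0.37 to 0.27; adjusted p = 0.948, limma). None of the 4 member rows passed, with 0 at an unadjusted p under 0.05 and 0 whose groups did not overlap. Over all 14365 tested rows 0% passed, 8.85% had an unadjusted p under 0.05 and 15.2% had groups that did not overlap. The row of Fmr1 itself was not among the tested rows, because its mean over 6 libraries, 0.906, fell below the filter at 1. It had 0.388, 0.439 and 0.439 in KO and 1.34, 1.43 and 1.40 in WT. Of the wider pathway list, 7 genes had 14 rows, 0 of them called and 1 at an unadjusted p under 0.05. That 1 was Nr0b1, a repressor of Nr5a1, with 5.18, 2.64 and 4.17 in KO and 2.34, 2.48 and 1.56 in WT (log2 difference 0.65, adjusted p = 0.499, limma).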

How the data were processed

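Whole fetal E16.5 mouse ovaries were sequenced in 12 libraries. Per the file headers, the authors made the input read counts with featureCounts 1.6.3 over exons, by gene, with the Ensembl 104 annotation and no option for strand, pairs or multiply placed reads. The counts were deposited without normalization. The RIP table was deposited as a fold enrichment, a ratio, per library. GRCm38, MACS2 2.1.0, BWA 0.7.12, FastQC and DESeq2 1.26.0 are named, without a role, per the submitters' processing notes.

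Counts were tested KO over WT with edgeR 4.0.16 in R 4.3.3 (TMM, filterByExpr, robust quasi-likelihood), with DESeq2 1.42.0 as an alternative. Ratios were tested with limma 3.58.1 on log2(value + 1), columns centred on their medians, keeping rows whose mean reached 1; this scale understates differences of low values. P-values were adjusted by Benjamini-Hochberg over all genes or rows at 0.05. Standard errors in edgeR are the estimate over the square root of F, and 95% intervals use the t distribution with its degrees of freedom. Replicates differed by more than sampling noise (chi-square per degree of freedom 7.03 to 12.1). Tested on simulated data with the input means, the edgeR step on 23790 genes recovered 26 of 50 genes changed 1.5-fold and 44 of 50 changed 2-fold, drawn from genes above 1 CPM. In simulated ratios, on 14301 rows, the limma step recovered 11 and 33 of 50 rows at those folds of value + 1. False calls were 7 in the simulated counts and 4 in the simulated ratios. The simulated counts had 50 genes changed at each fold, against 10 genes called in the data, and noise from the fitted trend. Members may therefore be recovered less often than these shares, and Cyp19a1, Cyp21a1 and Fshr had means below 1 CPM. Exact permutation tests of 3 against 3 libraries cannot go below 0.1.

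The members and lists were chosen with earlier results of these data known, and all members are named. Some genes of the wider list were counted but are not reported here singly. The files do not pair identifiers with symbols, and names of the other genes are those of their Ensembl identifiers, each checked to lie on the chromosome RefSeq gives for that symbol. No depth stands behind the RIP ratios in the files used.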

Additional observations from a re-analysis of the deposited data

How the results depend on the processing

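The count of members called in input was 0 with RLE factors, no low-count filter, DESeq2, the replicate block and each library left out, and the count of member RIP rows called was 0 under all 12 alternatives. Over all genes of the input, 10 were called, against 113 with no low-count filter, 37 with DESeq2, 20 with the replicate block and 5 to 37 with 1 library left out (5 without KO replicate 2, 37 without KO replicate 1, 28 without WT replicate 2); the RIP count of 0 became 1 with no filter on low values. The cause was not tested. Between KO and WT libraries of the same number, deviations from group means had correlations of -0.071, -0.034 and -0.044 (input) and -0.60, -0.34 and -0.22 (RIP). These gave no sign of pairing by number. Whether pools of the same number shared litters cannot be told from deviations within groups this small. The replicate block gave Esr1 a log2 change of -0.14. These estimates turned sign when 1 library was left out: Hsd3b1 (-0.11 to 0.11), Lhcgr (-0.24 to 0.19), Cyp17a1 (-0.64 to 0.11), Esr2 (-0.12 to 0.49) and the Hsd3b1 RIP row (-0.19 to 0.025). Those of Esr1 (-0.18 to -0.10), Star (-0.26 to -0.041), Cyp11a1 (-0.65 to -0.057) and Cyp19a1 (0.18 to 1.14) kept theirs. The higher Esr1 RIP row ran from 0.14 with a pseudocount of 10 to 0.73 without WT replicate 1, and was 0.48 with quantile normalization, which was chosen after seeing the data. Members from Esr2 downwards had 1 to 46 reads a library, and their spread within genotypes was 1.43 to 6.27 times that of counting alone (chi-square per degree of freedom).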

Other observations

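Among the other receptor and ligand genes of the wider list, chosen here after their values were seen, Amhr2, the receptor of anti-Müllerian hormone, was the most abundant, at 78.0 TPM in KO and 72.1 TPM in WT (log2 change 0.076, SE 0.070, adjusted p = 0.975, edgeR). Its ligand gene Amh stood at 1.27 TPM in KO and 0.842 TPM in WT (adjusted p = 0.957). The progesterone receptor gene Pgr was at 1.49 TPM in KO and 1.79 TPM in WT (adjusted p = 0.876). Amhr2 had 4 rows in the RIP table, none past the threshold.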
